A study of Mus musculus with 24 samples.

Results

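DNA replication and G1/S genes were followed in a mouse insulinoma line in which doxycycline (DOX) switches on the miR-23b cluster or miR-137. The set holds 40 genes, picked by name as parts of the replication machinery or as known targets of E2F transcription factors. Each was mapped by its symbol in GENCODE M21 to 1 Ensembl ID among the 46517 gene entries of the raw count table. All 40 passed the filter on low counts and were among the 14866 genes tested.

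Polyadenylated RNA was sequenced from βTC3 cells, a line from insulinomas of Rip-Tag2 mice, in which a rat insulin promoter drives the SV40 T antigen in beta cells. The miR-23b line carried the plasmid PB-31 with the miR-23b cluster (miR-23b, miR-27b and miR-24), the miR-137 line carried PB-31 with miR-137, and the control line carried PB-31 alone. Cultures received regular medium for 7 d (no DOX), DOX at 2 µg/ml for 7 d (7 d DOX), or DOX for 7 d followed by 7 d without it (withdrawn). Both miRNA lines had all 3 conditions and the control line the 7 d DOX and no DOX conditions, with 3 libraries per group, 8 groups and 24 libraries. All groups share the T antigen background. The control line had no withdrawn cultures, and no culture stayed untreated for the time that withdrawal took. Dates, plates and runs are absent from the labels, so within a line DOX and a batch that the untreated cultures had in common cannot be told apart. The cells were plated in triplicate, so p-values measure the spread between these libraries, which may be technical.

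Replication starts in G1, when CDC6 and CDT1 load the MCM helicase onto origins. In S phase CDC45 and the GINS complex turn it into a moving helicase, and polymerases, the PCNA clamp and its RFC loader, FEN1 and LIG1 copy and join the strands. E2F1 and E2F2 drive transcription of these genes once cyclin-dependent kinases inactivate RB, and E2F7 and E2F8 repress them later. The SV40 T antigen binds RB and p53, which frees E2F factors in Rip-Tag2 tumour cells.

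Libraries held 15759849 to 24144737 reads counted in genes. All 10 beta cell markers passed the filter, with a summed level of 15075.2 to 19478.1 CPM (counts relative to library size, scaled by TMM factors) per library. Of markers of other cell types, Prss1 and Amy2a5 (exocrine) and Cd3e (T cells) were at 0 in all libraries, and the delta, exocrine, fibroblast, endothelial and leukocyte lists each summed to at most 4.81 CPM. Alpha cell markers, of which 4 of 5 passed, summed to 271.5 to 285.1 CPM in the miR-23b line with 7 d DOX against 144.1 to 159.3 CPM without DOX, to 307.8 to 349.8 CPM in the miR-137 line with 7 d DOX against 125.5 to 137.5 CPM without DOX, and to 237.3 to 309.3 CPM in the control line with 7 d DOX against 122 to 135.8 CPM without DOX. After withdrawal they summed to 348.1 to 374.1 CPM in the miR-23b line and to 281.0 to 305.1 CPM in the miR-137 line. The withdrawn miR-23b line had the highest group mean of the series, but its range overlapped that of the miR-137 line with 7 d DOX. The part of the alpha cell markers in the results below was not tested. The 3 control libraries with 7 d DOX had the most genes with a count, 20898 to 21066, against at most 20336 in the others. The comparisons within the miRNA lines and of the miR-23b with the miR-137 response take no group mean from these 3. The filter, the scaling and the spread behind their p-values were still estimated with all 24 libraries.

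The induced miRNAs are shown first, as mature sequences from RefSeq (GRCm38.p6) with the seed, bases 2 to 8, in capitals. Their seeds differ from each other. The mature miR-23b-3p is named only: its sequence was absent from the source used, so its seed matches were not searched.
mmu-miR-27b-3p: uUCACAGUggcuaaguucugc
mmu-miR-24-3p: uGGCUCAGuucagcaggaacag
mmu-miR-137-3p: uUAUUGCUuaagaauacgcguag
The longest annotated 3′ UTR (GENCODE M21, GRCm38) of each gene was searched for matches to these seeds: to bases 2 to 8 (7mer-m8), to bases 2 to 7 followed by A (7mer-A1), or both (8mer). miR-27b matches were in 8 of the 40 genes (20%, against 29.7% of 12979 genes with a 3′ UTR), miR-24 matches in 9 (22.5%, against 26.8%) and miR-137 matches in 6 (15%, against 15.6%). The shares of the replication genes were thus below or close to those of all genes.

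A selection of the matches is printed with the seed match in capitals, in genes that the results below describe. Rrm2, Rfc4 and Mcm10 also have miR-27b matches, and Uhrf1 and Tyms have miR-137 matches, which are not printed. E2f2, an activator E2F that was higher with DOX in all 3 lines, has 1 miR-24 match. Gins2, a GINS subunit that was lower with DOX in both miRNA lines, has 2 miR-24 matches and 1 miR-137 match. The helicase subunits Mcm4 and Mcm6 have miR-27b matches, and Pcna, the sliding clamp, a miR-137 match.
E2f2, miR-24-3p 7mer-m8, chr4:136193721-136193727, plus strand: gatgtcttatctttcCTGAGCCtccc
Gins2, miR-24-3p 7mer-m8, chr8:120580969-120580975, minus strand: cacacctcagaggtgCTGAGCCtgct
Gins2, miR-24-3p 7mer-m8, chr8:120579809-120579815, minus strand: tgctctgtacagccaCTGAGCCtggt
Gins2, miR-137-3p 7mer-m8, chr8:120581330-120581336, minus strand: gatgtcagaaattacAGCAATAtatt
Mcm4, miR-27b-3p 7mer-m8, chr16:15624273-15624279, minus strand: agccgtacatcctttACTGTGAtatg
Mcm6, miR-27b-3p 8mer, chr1:128332924-128332931, minus strand: agacattgtgtctcACTGTGAAgccc
Pcna, miR-137-3p 8mer, chr2:132249189-132249196, minus strand: tccatcgtggagatAGCAATAAaaaa
A match is a run of letters and does not show that the miRNA acts there.

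RefSeq promoters (GRCm38.p6, 250 bases before to 50 after the start) were found for 34 of the 40 genes. The E2F motifs TTTCCCGC, TTTCGCGC, TTTGCCGC and TTTGGCGC, on either strand, occurred in the promoters of 14 of the 34 genes (41.2%), against 502 of 10851 genes (4.63%). The shorter forms, which are these letters without the first T and lie within every longer match, occurred in 23 genes (67.6%), against 19.4% of all genes. CCAAT occurred in 20 (58.8%, against 43.1%), and TTTGAA, the CHR element of late cell cycle genes, in 5 (14.7%, against 14%). Since the genes were chosen partly as E2F targets, the E2F shares describe the choice. Promoters of genes that moved in opposite directions in the miR-23b line are printed with the shorter E2F forms in capitals: Mcm6 and Chaf1b, which were lower with DOX, and E2f2, which was higher.
Mcm6, chr1:128359656-128359955, minus strand: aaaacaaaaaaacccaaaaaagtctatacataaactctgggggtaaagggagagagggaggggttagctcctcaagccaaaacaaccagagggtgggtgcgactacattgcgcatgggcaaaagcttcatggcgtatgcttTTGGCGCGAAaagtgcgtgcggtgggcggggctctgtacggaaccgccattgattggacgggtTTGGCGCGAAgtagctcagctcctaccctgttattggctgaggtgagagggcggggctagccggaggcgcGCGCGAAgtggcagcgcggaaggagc
Chaf1b, chr16:93883651-93883950, plus strand: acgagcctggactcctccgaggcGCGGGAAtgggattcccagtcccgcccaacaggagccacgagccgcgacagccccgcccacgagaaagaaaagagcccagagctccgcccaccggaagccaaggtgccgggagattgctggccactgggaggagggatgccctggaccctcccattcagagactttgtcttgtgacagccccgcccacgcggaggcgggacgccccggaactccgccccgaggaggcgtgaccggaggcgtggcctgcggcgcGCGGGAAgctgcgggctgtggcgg
E2f2, chr4:136172024-136172323, plus strand: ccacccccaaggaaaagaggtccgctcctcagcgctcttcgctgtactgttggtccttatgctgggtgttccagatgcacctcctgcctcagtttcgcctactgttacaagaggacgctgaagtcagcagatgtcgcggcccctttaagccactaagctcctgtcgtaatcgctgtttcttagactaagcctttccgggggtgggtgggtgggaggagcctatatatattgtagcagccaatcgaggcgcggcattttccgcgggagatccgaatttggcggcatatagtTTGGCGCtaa
RefSeq lists a further E2f2 promoter, which holds none of these E2F forms. A match is a description and no match says only that these letters are absent from the window.

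Divided by the length of their exons, levels averaged over the 24 libraries were highest for Pcna, at 150 CPM per kb of exon, whose range over the libraries lay above those of all other genes of the set. Mcm4 (110 CPM per kb), Mcm5 (108 CPM per kb) and the flap endonuclease Fen1 (103 CPM per kb) followed, and their ranges overlapped. The 5 lowest genes were Gins2 (16.2 CPM per kb), the repressor E2f7 (12.4 CPM per kb), the HELLS activator Cdca7 (9.15 CPM per kb), the helicase assembly factor Mcm10 (8.5 CPM per kb) and the exonuclease Exo1 (7.41 CPM per kb). Neighbours among these 5 also overlapped over the libraries, other than E2f7, which lay above Cdca7. The order depends on the length used. In the authors' TPM table Pcna was also highest, with a mean of 554 TPM, but Mcm7 (531 TPM), Lig1 (466 TPM) and Tyms (350 TPM) followed, and Mcm4 (53.7 TPM) and Mcm5 (61.3 TPM) were at ranks 29 and 26. The lowest there were Pola1 (34.7 TPM), Cdt1 (23 TPM), Chaf1a (22.4 TPM), Cdca7 (20.3 TPM) and E2f2 (16.8 TPM), so that only Cdca7 was among the 5 lowest on both scales. The ratio of CPM to TPM, which should follow gene length, had a Spearman correlation of 0.28 with exon length over the 40 genes, so levels between genes are uncertain on either scale.

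The summed level of the 40 genes differed most between the lines under DOX. In the miR-23b line it was 7345.1, 7349.1 and 7429.9 CPM without DOX, 6643.4, 6471.3 and 6527.2 CPM with 7 d DOX, and 7709.2, 7520.0 and 7522.1 CPM after withdrawal. In the miR-137 line it was 7300.0, 7241.8 and 7292.5 CPM without DOX, 7123.5, 7184.4 and 7106.7 CPM with 7 d DOX, and 7774.0, 7553.3 and 7645.6 CPM after withdrawal. In the control line it was 7745.9, 7824.4 and 7748.3 CPM with 7 d DOX and 7431.7, 7418.9 and 7486.7 CPM without DOX. With DOX the sum was thus lower than without in all libraries of the miR-23b and miR-137 lines and higher in all of the control line, and after withdrawal it was above both other conditions in both miRNA lines. These are bulk libraries, in which fewer cells in S phase and less of each RNA per cell cannot be told apart.

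**Figure D1:**
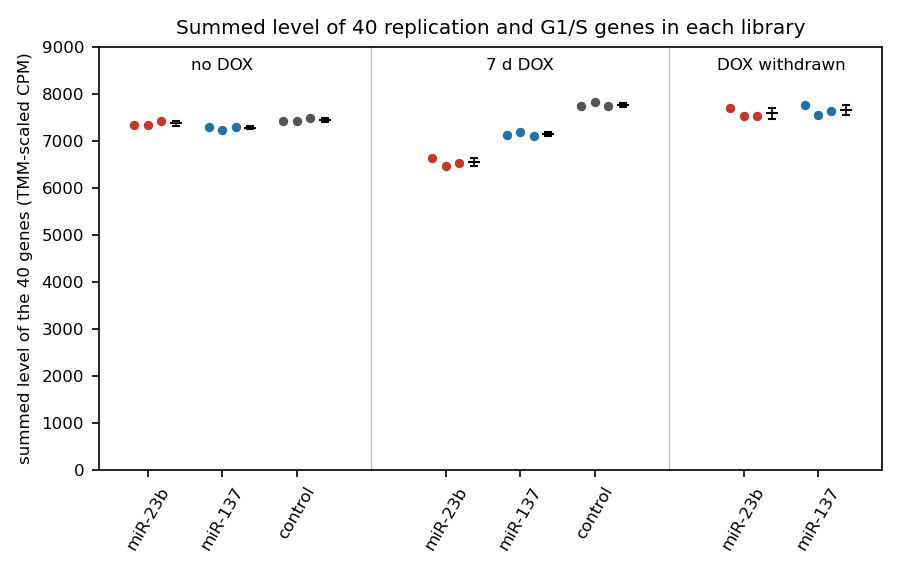
Summed TMM-scaled CPM of the 40 genes in each of the 24 libraries (points) with the mean and SD (n = 3) beside them, by line and condition; the vertical axis starts at 0. The miR-23b line with 7 d DOX is lowest at 6471.3 to 6643.4 CPM, and the control line with 7 d DOX is highest among the DOX groups at 7745.9 to 7824.4 CPM.

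In the miR-23b line, 7 d of DOX went with lower levels of most of the replication machinery and higher levels of a few G1/S genes. Of the 40 genes, 27 were lower and 4 higher than without DOX (edgeR's quasi-likelihood test, Benjamini-Hochberg adjusted p below 0.05 over all genes), against 28.6% of all genes lower and 28.8% higher. The median log2 fold change was -0.17, against 0.01 over all genes. Of the 12 helicase genes 11 fell, of the 13 polymerase, clamp and fork genes 8 fell, of the 5 chromatin and histone supply genes 4 fell, and of the 4 nucleotide supply genes 1 fell and 1 rose. In each of the 31 called genes the 3 libraries with DOX all lay to the same side of the 3 without. Since these genes were selected by their call, this is no separate check, and its share over all genes was not counted.

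Among the helicase genes, Mcm4 (ENSMUSG00000022673, chr16:15623897-15637400) had 306.7, 293 and 289.8 CPM with DOX and between 421.8 and 425.1 CPM in the 3 libraries without. Its log2 fold change was -0.51 (SE 0.03, adjusted p = 1.49e-18, edgeR), a fall of 29.9 percent. All 3 libraries with DOX were below all 3 without, by far more than the spread within either group. Gins2 (ENSMUSG00000031821, chr8:120578633-120589304) had 50.1, 47.6 and 49.5 CPM with DOX and 67.5, 72.9 and 73.9 CPM without, a log2 fold change of -0.54 (SE 0.04, adjusted p = 1.89e-13, edgeR). The other subunits of the MCM ring fell too, Mcm3 by 0.38, Mcm6 by 0.32, Mcm2 by 0.31, Mcm5 by 0.17 and Mcm7 by 0.14 on the log2 scale, although Mcm7 was at 0.01 on the authors' TPM scale. Of the loaders, Cdc6 had 79.8, 77.5 and 77.5 CPM with DOX and 87.5, 82.4 and 83.9 CPM without, and Cdt1 had 94.1, 95.4 and 101 CPM with DOX and 115, 112 and 111 CPM without. Both were lower in all libraries with DOX. Gins1, which pairs with Gins2 in the same complex, was the helicase gene that was not called, at 29.3, 28.9 and 26.6 CPM with DOX and 26.0, 27.6 and 26.8 CPM without.

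At the fork, the flap endonuclease Fen1 had 202, 186 and 195 CPM with DOX and 247, 250 and 257 CPM without (log2 fold change -0.37, SE 0.03, adjusted p = 1.06e-12, edgeR). The clamp loader subunit Rfc4 had 62.9, 58.3 and 54.5 CPM with DOX and 74.5, 75.9 and 79.4 CPM without (log2 fold change -0.38, SE 0.04). Pcna had 328, 314 and 323 CPM with DOX and 363, 375 and 377 CPM without (log2 fold change -0.21, SE 0.04). The groups did not overlap in any of these 3. The polymerase and primase genes moved less: Pola2 and Pole fell, and Pola1, Pold1 and Prim1 were not called.

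Chaf1b (ENSMUSG00000022945, chr16:93883901-93906115), a subunit of the chromatin assembly factor that places histones behind the fork, fell most of the 40. It had 140, 139 and 147 CPM with DOX and 227, 239 and 234 CPM without, a log2 fold change of -0.72 (SE 0.03, adjusted p = 2.45e-20, edgeR), or 39.2 percent less. Its partner Chaf1a had 124, 131 and 130 CPM with DOX and 152, 149 and 163 CPM without. Slbp, which binds the end of histone mRNAs, had 104, 107 and 100 CPM with DOX and 122, 122 and 120 CPM without. All 3 were lower in every library with DOX.

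The genes that rose were E2f2, the small ribonucleotide reductase subunit Rrm2, the cyclin Ccne2 and the repressor E2f7. E2f2 (ENSMUSG00000018983, chr4:136172394-136196057) had 116, 111 and 119 CPM with DOX and 75.8, 70.6 and 77.4 CPM without, a log2 fold change of 0.63 (SE 0.04, adjusted p = 1.97e-16, edgeR). Rrm2 had 199, 194 and 181 CPM with DOX and 143, 132 and 135 CPM without (log2 fold change 0.49, SE 0.04). Ccne2 had 163, 160 and 154 CPM with DOX and 120, 119 and 113 CPM without (log2 fold change 0.44, SE 0.05). Their close relatives did not rise. E2f1 had 123, 125 and 128 CPM with DOX and 150, 146 and 155 CPM without, Ccne1 had 75.3, 77.7 and 77.7 CPM with DOX and 93.8, 95.8 and 96.3 CPM without, and the large subunit Rrm1 was not called, at 471, 467 and 460 CPM with DOX and 477, 467 and 475 CPM without. E2f1 and Ccne1 were thus lower in all libraries with DOX, and the Rrm1 libraries overlapped.

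The counts depend on the scaling. With limma on log2(TPM + 1) of the authors' normalized table, 16 of the 40 were lower and 9 higher. There 8464 of 14866 genes were called, 5672 of them higher, so the share of calls that were higher over all genes was 67.0% in place of 50.2%. Scaled to library totals, 23 were lower and 7 higher. Over all genes 8888 were then called, 5459 of them higher, and that share was 61.4%.

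**Figure D2:**
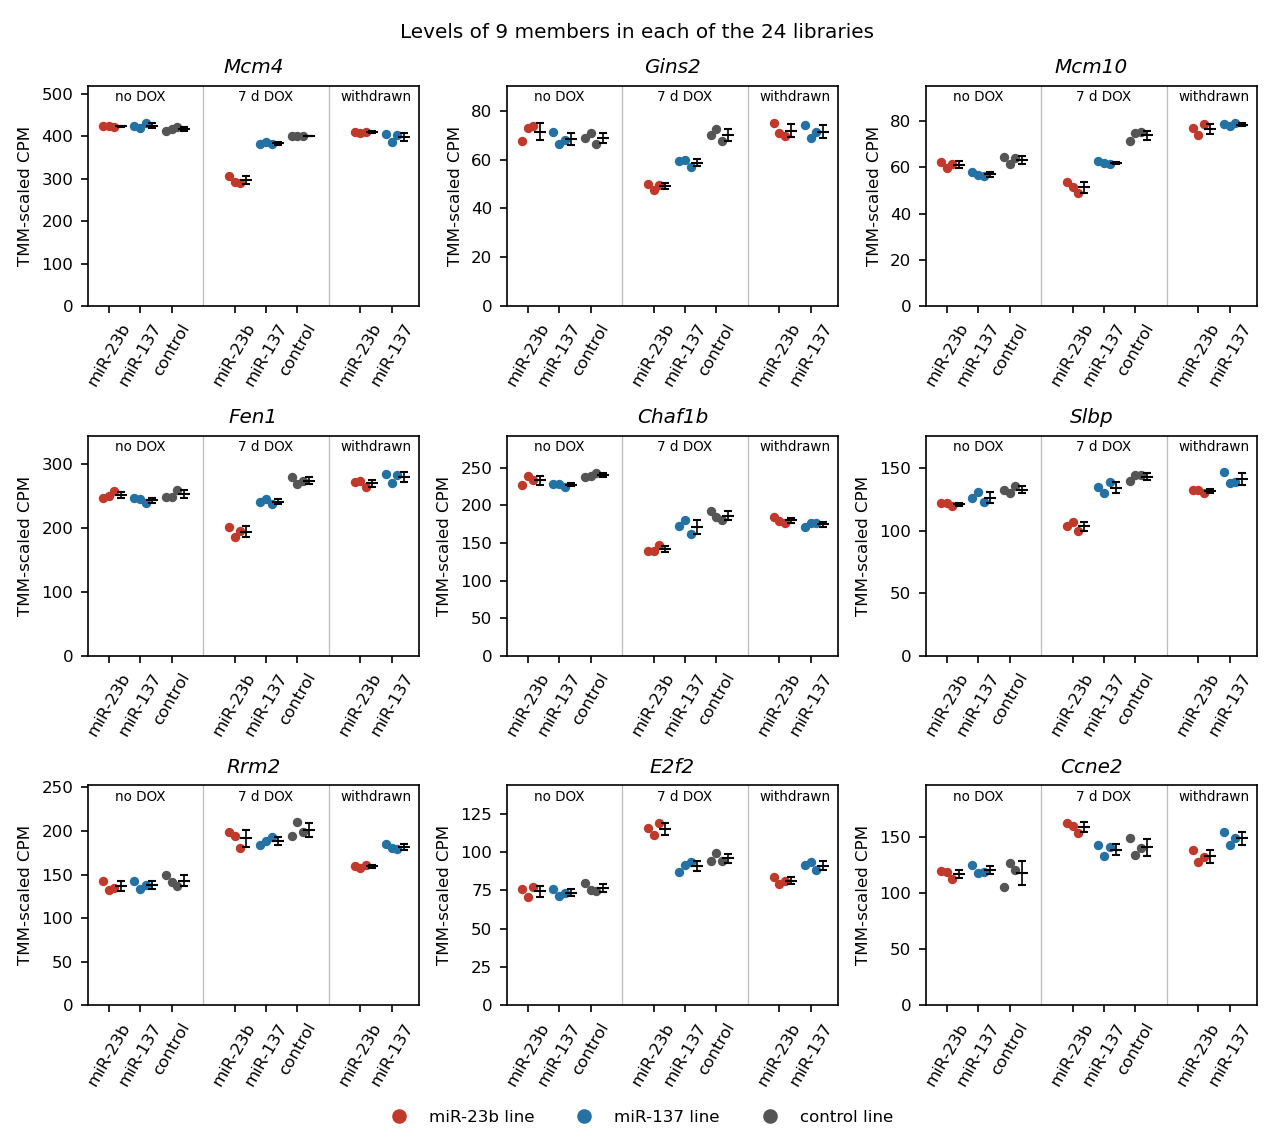
TMM-scaled CPM of 9 of the genes in each of the 24 libraries (points) with mean and SD (n = 3), by line and condition; each vertical axis starts at 0. With 7 d DOX the miR-23b libraries of Mcm4, at 290 to 307 CPM, lie below the other DOX libraries, while those of E2f2, at 111 to 119 CPM, lie above them.

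In the control line, DOX went mostly with higher levels. Of the 40 genes, 22 were higher and 4 lower with 7 d DOX, against 18.5% of all genes higher and 19.3% lower (edgeR, adjusted p below 0.05), with a median log2 fold change of 0.11 against 0.01 over all genes. All 4 nucleotide supply genes rose. Rrm2 had 194, 210 and 199 CPM with DOX and 150, 142 and 137 CPM without, a log2 fold change of 0.49 (SE 0.04, adjusted p = 1.88e-13, edgeR). E2f2 had 94.3, 99.6 and 94.1 CPM with DOX and 79.9, 75.5 and 74.5 CPM without (log2 fold change 0.32, SE 0.04), and Ccne2 had 149, 134 and 140 CPM with DOX and 106, 127 and 121 CPM without (0.26, SE 0.05). The groups did not overlap in any of these 3. Mcm10 and Cdc6 rose by 0.22 each on the log2 scale. The 4 that fell were Chaf1b (193, 185 and 181 CPM with DOX, 238, 239 and 243 CPM without), Cdt1 (105, 103 and 103 CPM with DOX, 116, 122 and 120 CPM without), E2f1 (140, 139 and 139 CPM with DOX, 157, 156 and 153 CPM without) and Mcm3 (329, 340 and 331 CPM with DOX, 354 in each library without).

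Some moves were common to all 3 lines. Rrm2, E2f2, E2f7 and Ccne2 were higher with DOX in the miR-23b, miR-137 and control lines, and Mcm3, Cdt1 and Chaf1b were lower in all 3. Over all genes, 7.41% were higher in all 3 lines and 10.2% lower in all 3, so 4 and 3 of 40 are close to the background. In contrast, 12 of the 40 were called lower in the miR-23b line and higher in the control line, against 337 of 14866 genes (2.27%). These were the helicase genes Mcm5, Mcm10, Cdc6 and Cdc45, the fork genes Rfc3, Pole and Fen1, the thymidylate synthase gene Tyms, the chromatin genes Chaf1a, Cdca7 and Slbp, and the repressor E2f8.

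The difference between responses, which sets the change with DOX in the miR-23b line against that in the control line, removes what both share. It was lower for 27 of the 40 genes and higher for 2, against 19.4% of all genes lower and 18.1% higher (edgeR, adjusted p below 0.05). The median difference was -0.26 log2 units, against -0.01 over all genes, and 38 of 40 estimates were below 0. By role, 10 of 12 helicase genes were lower (median -0.29), all 5 chromatin and histone supply genes (median -0.35), 8 of 13 polymerase, clamp and fork genes (median -0.17) and 2 of 4 nucleotide supply genes (median -0.14). Of the 6 E2F and cyclin E genes 2 were lower and 2 higher.

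Gins2 stood lowest, at -0.57 log2 units (SE 0.06, adjusted p = 1.05e-09, edgeR): its 67.7 to 72.5 CPM in control libraries with DOX and 66.5 to 70.7 CPM without overlapped. Fen1 followed at -0.49 (SE 0.04, adjusted p = 3.24e-11, edgeR), then E2f8 at -0.48 (SE 0.05), Mcm10 at -0.47 (SE 0.05) and Mcm4 at -0.46 (SE 0.04, adjusted p = 5.90e-12, edgeR). For E2f8, Mcm10 and Fen1 the control line had risen while the miR-23b line had fallen, and for Mcm4 the control line was not called, at 401.1, 401 and 400.1 CPM with DOX and 412.4, 418.5 and 420.8 CPM without. Chaf1b, which fell in both lines, differed by -0.35 (SE 0.05), while Cdt1, which also fell in both, differed by -0.02 (SE 0.06, adjusted p = 0.82, edgeR). Rrm2 differed by 0.00 (SE 0.05, adjusted p = 0.973, edgeR). Levels of Chaf1b thus fell further in the miR-23b line than in the control line, and no difference was detected for Cdt1 and Rrm2.

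E2f2 was higher by 0.31 (SE 0.06, adjusted p = 4.33e-05, edgeR) and Ccne2 by 0.18 (SE 0.07, adjusted p = 0.0268, edgeR). Ccne2 lost its call without any of 5 libraries (control no DOX replicate 2 or 3, control 7 d DOX replicate 2, miR-23b no DOX replicate 3 or 7 d DOX replicate 1), with values of 0.13 to 0.17. Pcna, at -0.13 (SE 0.05, adjusted p = 0.0421, edgeR), lost its call when any of 7 libraries was left out, and its value on the authors' TPM scale was -0.02. With limma on log2(TPM + 1), 22 of the 40 were lower and 2 higher and the members' median was -0.14 against 0.07 over all genes. There 5396 of 14866 genes were called, 3774 of them higher. The share of calls over all genes that were higher was thus 69.9% in place of 48.3%, and 58.4% with library totals.

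**Figure D3:**
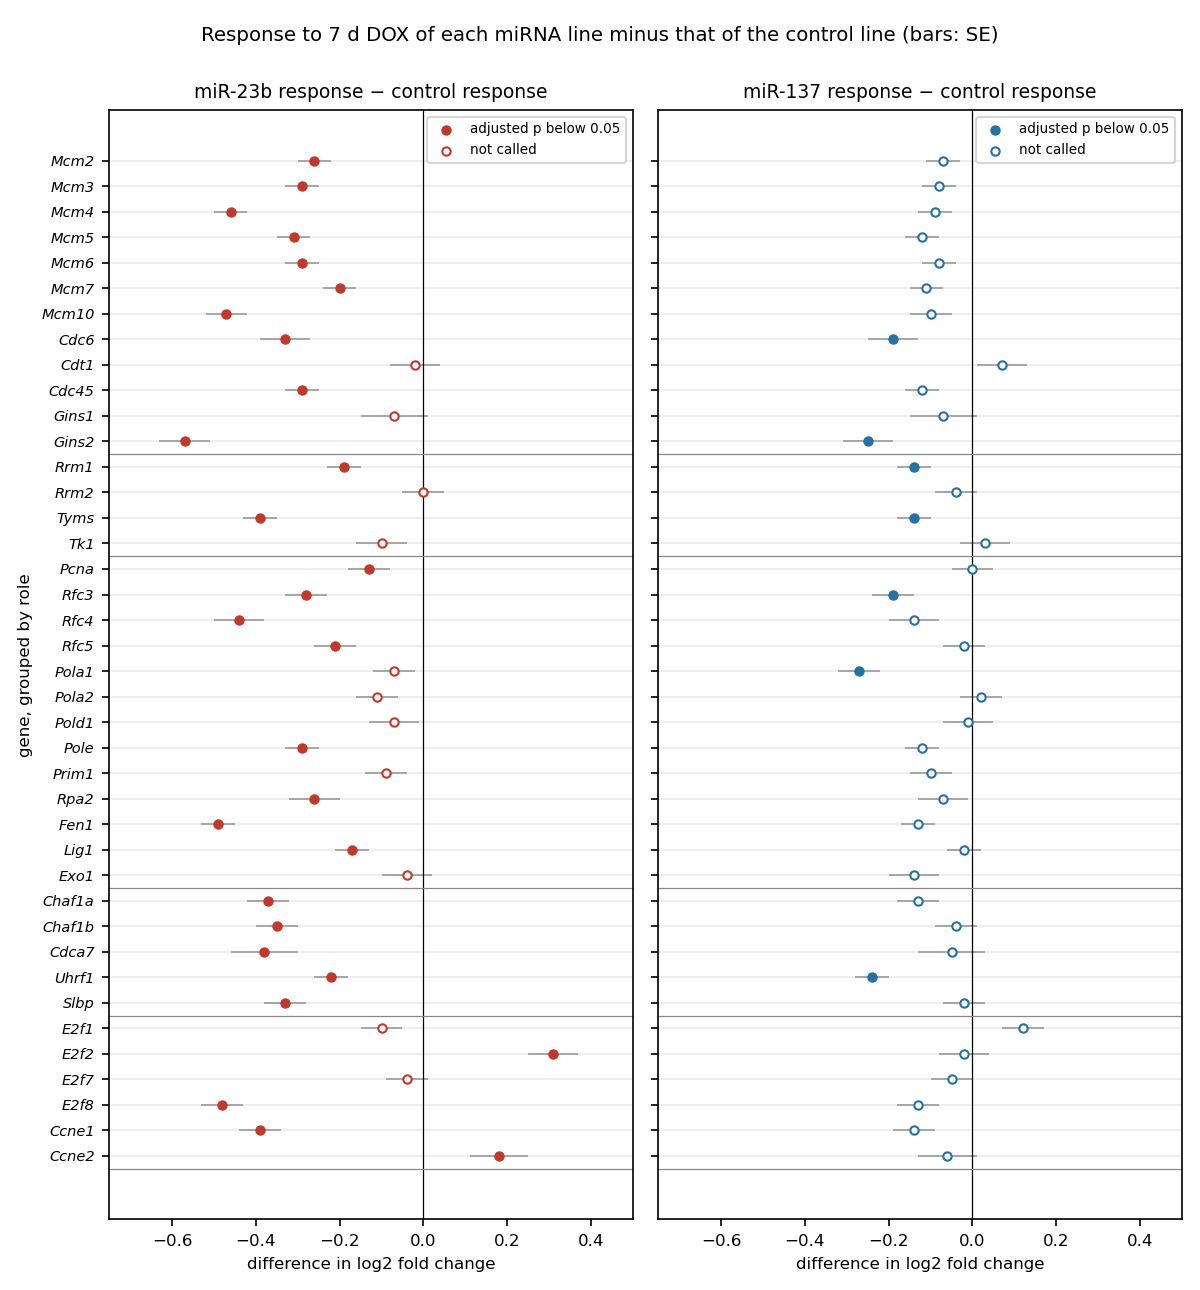
Difference in log2 fold change with 7 d DOX between each miRNA line and the control line for the 40 genes, ordered by role (points: estimate, bars: SE, filled: adjusted p below 0.05 in edgeR). In the panel of the miR-23b line 27 filled points lie left of 0 and 2, E2f2 and Ccne2, lie right of it; in that of the miR-137 line 7 filled points lie left of 0.

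Set directly against the control line with DOX, the miR-23b line with DOX had 35 of the 40 genes lower and 2 higher, against 26.3% of all genes lower and 25.9% higher (edgeR). Mcm10 was lowest at -0.52 log2 units (SE 0.04), with 53.5, 51.4 and 49.0 CPM in the miR-23b line and 71.5, 74.6 and 75.1 CPM in the control line. Slbp had 104, 107 and 100 CPM in the miR-23b line and 140, 145 and 145 CPM in the control line. Neither gene's groups overlapped. Slbp was already called lower in the miR-23b line without DOX. Without DOX the estimates for 30 of the 40 were below 0 against the control line, with a median of -0.02 log2 units against -0.26 with DOX. On the authors' TPM scale 64.0% of calls over all genes were higher in place of 49.5%.

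In the miR-137 line the genes moved in both directions. With DOX, 10 of the 40 were higher and 9 lower, against 21% of all genes higher and 21.8% lower (edgeR, adjusted p below 0.05), so the shares were close to those of all genes, and the median was -0.01 against 0.00. The lower genes included Chaf1b (173, 180 and 162 CPM with DOX, 228, 229 and 225 CPM without), Gins2 (59.6, 59.7 and 57.0 CPM with DOX, 71.2, 66.4 and 68.1 CPM without) and the catalytic subunit of polymerase alpha, Pola1 (186, 178 and 181 CPM with DOX, 209, 202 and 211 CPM without). The higher genes were led by Rrm2 (184, 188 and 193 CPM with DOX, 143, 133 and 138 CPM without) and E2f2 (87.3, 91.7 and 93.8 CPM with DOX, 75.7, 71.5 and 73.4 CPM without). The groups did not overlap in any of these 5. Mcm2, Mcm3, Mcm4 and Mcm6 fell by 0.11 to 0.16 on the log2 scale, while Mcm5 was not called, at 408, 429 and 411 CPM with DOX and 411, 407 and 411 CPM without.

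Against the control response, 7 of the 40 genes were lower in the miR-137 line and none higher in edgeR, against 4.78% of all genes lower and 5.9% higher. At an unadjusted p below 0.05, 1 was higher, and DESeq2 and limma on TPM called 0 higher. The median difference was -0.08 log2 units, against 0.00 over all genes, and 36 of 40 estimates were below 0. The 7 were Pola1 at -0.27 (SE 0.05, adjusted p = 0.000333, edgeR), Gins2 at -0.25 (SE 0.06), the DNA methylation maintenance factor Uhrf1 at -0.24 (SE 0.04, adjusted p = 0.000296, edgeR), Cdc6 at -0.19 (SE 0.06), the clamp loader subunit Rfc3 at -0.19 (SE 0.05), Rrm1 at -0.14 (SE 0.04) and Tyms at -0.14 (SE 0.04). Uhrf1 had 208, 216 and 218 CPM with DOX and 222, 226 and 226 CPM without in the miR-137 line, and 257, 270 and 261 CPM with DOX and 238, 237 and 229 CPM without in the control line. It was thus lower in all libraries with DOX in the miR-137 line, where its fall was not called, and higher in all with DOX in the control line. Without the filter on low counts, or without miR-137 no DOX replicate 3, 4 genes were lower in place of 7. With DOX, 26 of the 40 were lower in the miR-137 line than in the control line and none higher in edgeR, against 12.6% of all genes lower and 14.7% higher. Without DOX the estimates for 34 of the 40 were already below 0 in the miR-137 line against the control line, with a median of -0.05 log2 units against -0.14 with DOX. At an unadjusted p below 0.05 and by DESeq2 and limma on TPM, 0 were higher. On the authors' TPM scale 41.6% of calls over all genes were higher in place of 53.7%.

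The miR-23b and miR-137 responses differed for 27 of the 40 genes: 24 were lower in the miR-23b line and 3 higher, against 18.4% of all genes lower and 16.8% higher (edgeR, adjusted p below 0.05). The median difference was -0.17 log2 units, against 0.00. Mcm10 (-0.37, SE 0.06), Mcm4 (-0.36, SE 0.04), Fen1 (-0.36, SE 0.04), E2f8 (-0.35, SE 0.05) and Cdca7 (-0.33, SE 0.08) stood lowest. Higher in the miR-23b line were E2f2 (0.32, SE 0.06, adjusted p = 2.24e-05, edgeR), Ccne2 (0.24, SE 0.07) and Pola1 (0.20, SE 0.05, adjusted p = 0.00217, edgeR). Pola1 had 219, 213 and 203 CPM with DOX and 208, 216 and 207 CPM without in the miR-23b line, where the groups overlapped, so its difference came with the fall in the miR-137 line. On the authors' TPM scale 10 were lower and 3 higher, where 5564 of 14866 genes were called, 4113 of them higher. The share of calls over all genes that were higher was thus 73.9% in place of 47.7%, and 59.3% with library totals.

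**Figure D4:**
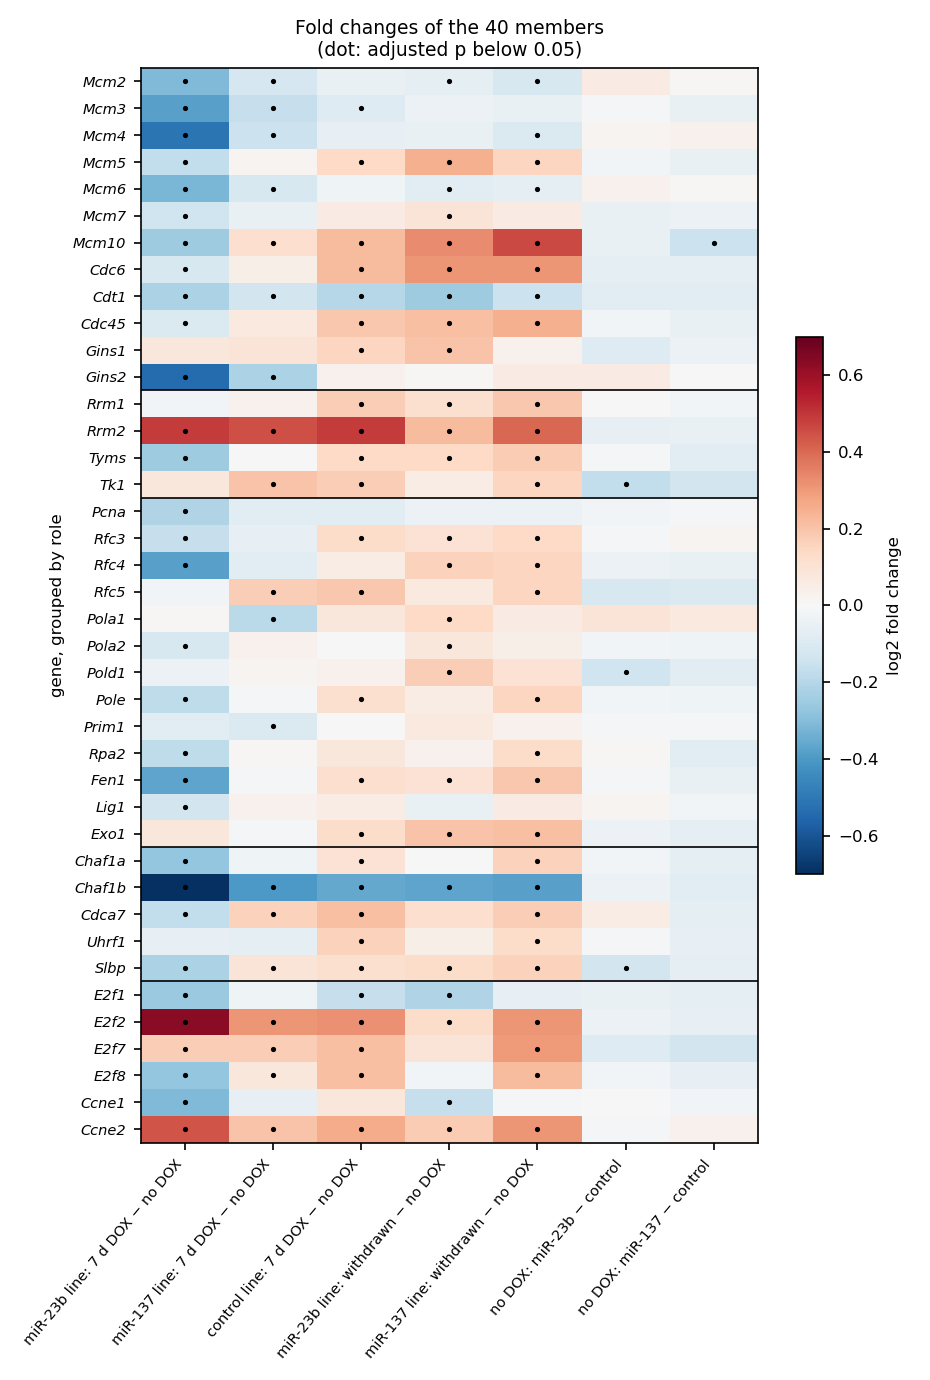
Log2 fold changes of the 40 genes (rows, ordered by role) in 7 comparisons (columns), with a dot where the edgeR adjusted p was below 0.05. In the miR-23b line with 7 d DOX 27 genes are called lower (blue) and 4 higher (red), in the control line 4 lower and 22 higher, and without DOX 3 and 1 genes differ between the miRNA lines and the control line.

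After withdrawal, most genes of the set were above their DOX levels in both miRNA lines. In the miR-23b line 32 of the 40 were higher and 3 lower than with 7 d DOX, against 26.4% of all genes higher and 25.8% lower (edgeR), with a median of 0.22 against 0.00. The 3 that fell were E2f2, Rrm2 and Ccne2, the same genes that had risen most with DOX. Mcm4 had 421.8 to 425.1 CPM without DOX, 289.8 to 306.7 CPM with 7 d DOX and 407.5 to 411.5 CPM after withdrawal. E2f2 had 75.8, 70.6 and 77.4 CPM without DOX, 116, 111 and 119 CPM with 7 d DOX and 83.8, 79.3 and 80.9 CPM after withdrawal. For Mcm4 the difference between withdrawn and no DOX was not called (-0.05, SE 0.03, adjusted p = 0.174, edgeR). Mcm10 had 62.4, 59.6 and 61.3 CPM without DOX, 53.5, 51.4 and 49.0 CPM with 7 d DOX and 77.0, 74.0 and 78.6 CPM after withdrawal, so that its withdrawn libraries were above all others of the line. On the authors' TPM scale 19 were higher and 7 lower than with DOX, and Uhrf1, Pola1 and Lig1 changed sign. There 7639 of 14866 genes were called, 2125 of them higher, a share of 27.8% in place of 50.6%.

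In the miR-137 line 21 of the 40 were higher after withdrawal than with 7 d DOX and none lower in edgeR, against 14.7% of all genes higher and 14.8% lower, with a median of 0.11 against 0.00. At an unadjusted p below 0.05 and by DESeq2 and limma on TPM, 0 were lower. Mcm10 had 57.9, 56.8 and 56.0 CPM without DOX, 62.5, 61.9 and 61.6 CPM with 7 d DOX and 78.5, 77.6 and 79.0 CPM after withdrawal. Gins2 had 71.2, 66.4 and 68.1 CPM without DOX, 59.6, 59.7 and 57.0 CPM with 7 d DOX and 74.1, 68.9 and 71.4 CPM after withdrawal. The 3 stages did not overlap for Mcm10, while for Gins2 the withdrawn and no DOX libraries did. Rrm2, E2f2 and Ccne2 were not called lower here: Rrm2 had 143, 133 and 138 CPM without DOX, 184, 188 and 193 CPM with 7 d DOX and 185, 181 and 179 CPM after withdrawal.

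Set against no DOX, many of the genes still differed after withdrawal. In the miR-23b line 19 of the 40 were higher and 6 lower, against 19.2% of all genes higher and 20.6% lower, and in the miR-137 line 23 were higher and 5 lower, against 21.6% higher and 21.7% lower (edgeR, adjusted p below 0.05). The medians were 0.09 and 0.14 log2 units, against 0.00 and 0.01 over all genes. On the authors' TPM scale 39.5% of calls over all genes in the miR-137 line were higher in place of 49.9%. In both lines 14 genes were higher, among them Mcm10 (0.33 in the miR-23b line and 0.46 in the miR-137 line), Cdc6 (0.31 in both) and Cdc45 (0.21 and 0.25), against 13.2% of all genes. Mcm2, Mcm6, Cdt1 and Chaf1b were lower in both, against 15.1% of all genes. In the miR-23b line the falls of Mcm2 (-0.07) and Mcm6 (-0.08) lost their calls without any 1 of the no DOX libraries or of withdrawn replicates 2 and 3. Chaf1b had 227, 239 and 234 CPM without DOX, 140, 139 and 147 CPM with 7 d DOX and 184, 179 and 177 CPM after withdrawal in the miR-23b line. In the miR-137 line it had 228, 229 and 225 CPM without DOX, 173, 180 and 162 CPM with 7 d DOX and 171, 177 and 177 CPM after withdrawal. Chaf1b in the miR-23b line was thus between its other stages, and in the miR-137 line its withdrawn libraries lay within the range of those with DOX.

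Of the 14 genes higher after withdrawal in both lines, 13 were also higher in the control line with 7 d DOX, each against its own no DOX libraries. Over all genes, 1392 of the 1969 higher after withdrawal in both lines were also higher in the control line. Counted over the whole set, 13 of the 40 were higher in all 3, against 9.36% of all genes. Cdt1 and Chaf1b were lower in all 3, against 11.6% of all genes. Across the 40 genes, log2 fold changes after withdrawal in the miR-137 line and with DOX in the control line, which share no library, had a Pearson correlation of 0.92 (0.66 over all genes). For the withdrawn miR-23b line and the control line with DOX it was 0.77 (0.56 over all genes), and for the miR-23b and control responses to DOX 0.72 (0.43). These correlations run across genes, which are not independent replicates and were counted and scaled together. Time in culture and DOX cannot be told apart in the withdrawn cultures.

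**Figure D5:**
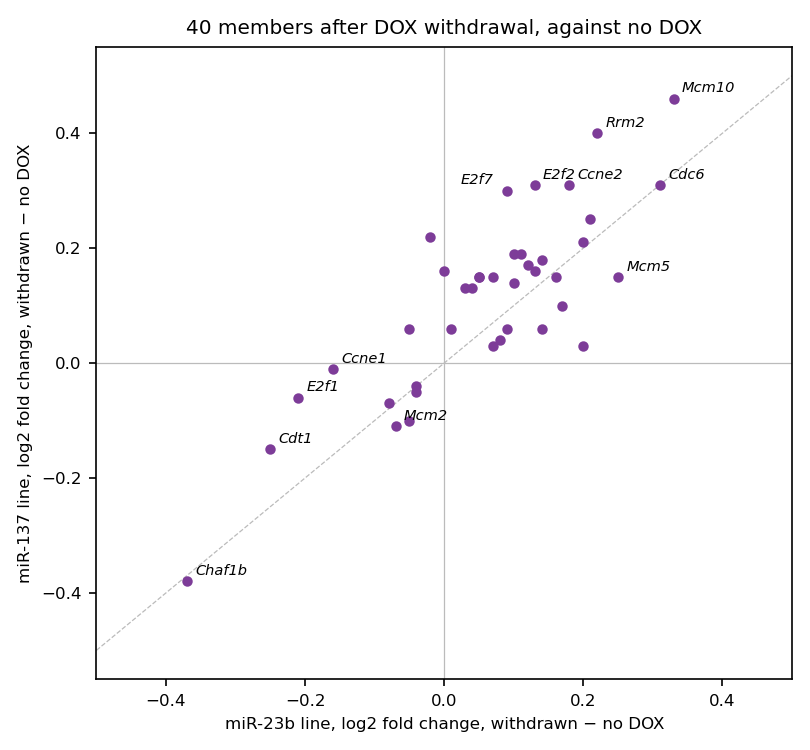
Log2 fold change of withdrawn against no DOX for the 40 genes, in the miR-23b line (horizontal) and the miR-137 line (vertical); the broken line marks equal values. Mcm10, at 0.33 and 0.46, lies at the upper right and Chaf1b, at -0.37 and -0.38, at the lower left.

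Without DOX few of the genes were called different between the lines, but most estimates in the miRNA lines lay below 0. Against the control line, 3 of the 40 genes were lower in the miR-23b line and none higher in edgeR, against 2.78% of all genes lower and 3.59% higher. At an unadjusted p below 0.05, 2 were higher, and DESeq2 and limma on TPM called 0 higher. The 3 lower genes were the thymidine kinase gene Tk1 at -0.17 (SE 0.04), the polymerase delta subunit Pold1 at -0.14 (SE 0.04) and Slbp at -0.13 (SE 0.03). Tk1 had 77.0, 75.2 and 77.3 CPM in the miR-23b line and 89.0, 85.1 and 83.8 CPM in the control line, with no overlap. In the miR-137 line Mcm10 was lower and 0 genes higher in edgeR (also 0 at an unadjusted p below 0.05, by DESeq2 and by limma on TPM), against 0.814% of all genes lower and 1.89% higher, with 57.9, 56.8 and 56.0 CPM in the miR-137 line and 64.2, 61.2 and 63.8 CPM in the control line. Of the 40 estimates 30 were below 0 in the miR-23b line (median -0.02) and 34 in the miR-137 line (median -0.05), against a median of 0.00 over all genes for both. The summed level of the 40 genes was 7241.8 to 7300.0 CPM in the miR-137 line and 7418.9 to 7486.7 CPM in the control line, without overlap. Of calls over all genes, 56.3% were higher in the miR-23b line (37.5% with library totals and 33.7% on the TPM scale) and 69.9% in the miR-137 line (51.8% with library totals). Without control no DOX replicate 1 or 3 the 3 genes became 1, and the single gene of the miR-137 line became none without either of these or miR-137 no DOX replicate 1 or 3.

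Other genes of the same pathways, from lists that hold none of the 40, were also counted. Their shares stand beside 19.4% of all genes lower and 18.1% higher in the difference between the miR-23b and control responses. There, 11 of 20 further origin and licensing genes were lower (median -0.15), 10 of 20 further fork and polymerase genes were lower and 2 higher (-0.14), 6 of 9 further chromatin genes were lower (-0.23), 5 of 12 further nucleotide genes were lower and 1 higher (-0.10), and 5 of 16 S phase repair genes were lower (-0.10). Of 25 mitosis genes 18 were lower (-0.20). With DOX 4 of the mitosis genes were higher and 10 lower in the miR-23b line, against 28.8% and 28.6% of all genes. In the miR-137 line 7 were higher and 7 lower, against 21% and 21.8% of all genes, which is close to the background, and in the control line 17 were higher and 1 lower, against 18.5% and 19.3%. Their part in the results was not tested. Of 25 measured RB, E2F and G1 control genes 9 were lower and 6 higher (-0.10), and of 7 CDK inhibitors 1 was lower and 1 higher. The medians of these lists stand beside -0.26 for the 40 genes and -0.01 for all genes, and the differences between lists were not tested.

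The CDK inhibitor that was higher was Cdkn1a, which encodes p21, a target of p53. It had 222, 211 and 220 CPM with DOX and 109, 117 and 118 CPM without in the miR-23b line, and 121, 126 and 120 CPM with DOX and 121, 115 and 122 CPM without in the control line. The miR-137 line had 148, 143 and 147 CPM with DOX and 117, 116 and 112 CPM without. Its difference between the responses was 0.89 (SE 0.05, adjusted p = 2.49e-17, edgeR), and that of the miR-137 line was 0.31 (SE 0.05, adjusted p = 2.99e-05, edgeR). Levels with DOX were thus apart from those without in both miRNA lines and overlapped in the control line. Of the genes named by size, the lamin gene Lmnb1 differed by -0.79 (SE 0.05), E2f5, an E2F that acts with RB relatives, by 0.73 (SE 0.12), and the polymerase delta subunit Pold4 by -0.63 (SE 0.11). Within the miR-23b line the cyclin D gene Ccnd3 had 65.8, 65.6 and 65.9 CPM with DOX and 116, 109 and 117 CPM without (log2 fold change -0.79, SE 0.04), and Ccnd2 had 9.41, 9.76 and 9.44 CPM with DOX and 5.75, 4.85 and 4.52 CPM without (0.93, SE 0.12). Both were without overlap.

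Genes with and without a seed match were set side by side as a description. Genes without a match to 1 miRNA may hold a match to another of the cluster, and matches to miR-23b were not searched. In the difference between the miR-23b and control responses, the 8 genes with a miR-27b match had a median of -0.34 log2 units, with 5 lower, and the 32 without one -0.24, with 22 lower and 2 higher. The 9 genes with a miR-24 match had a median of -0.26, with 5 lower and 1 higher, and the 31 without one also -0.26, with 22 lower and 1 higher. For miR-137 the 6 genes with a match had a median of -0.14 in the difference between the miR-137 and control responses, with 3 lower, and the 34 without one -0.08, with 4 lower. E2f2, with the miR-24 match printed above, was among the 2 genes higher in the miR-23b response. Rrm2 with a miR-27b match differed by 0.00 there, and Pcna with a miR-137 match by 0.00 in the miR-137 response. Other genes with a match were lower against the control response. In the miR-23b line these included Gins2 with miR-24 matches (-0.57), and Mcm10 (-0.47) and Mcm4 (-0.46) with miR-27b matches. In the miR-137 line the 3 with a miR-137 match were Gins2 (-0.25), Uhrf1 (-0.24) and Tyms (-0.14).

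Exons of 14 of the 40 genes overlap a gene on the other strand, and no source used here gives the strand setting of the counting. The partners that were called in the difference between the miR-23b and control responses (edgeR, adjusted p below 0.05) are given here. The largest move was that of Gm2788, which overlaps E2f8, at -0.86 (SE 0.27, adjusted p = 0.0147, edgeR), a larger fall than that of E2f8 itself at -0.48. Within the miR-23b line Gm2788 stood at -0.81 (SE 0.20, adjusted p = 0.000803, edgeR). Also lower were Zswim9, which overlaps Lig1 (-0.29, SE 0.09), Cops6, which overlaps Mcm7 (-0.24, SE 0.06), Wsb2, which overlaps Rfc5 (-0.23, SE 0.04), Gse1, which overlaps Gins2 (-0.19, SE 0.06), and Tmem258, which overlaps Fen1 (-0.17, SE 0.06). Ufd1, which overlaps Cdc45, was higher (0.13, SE 0.05). Reads of each gene and its partner cannot be told apart in the shared exons if the counting ignored strand. Reads listed as ambiguous, 0.741% to 0.779% per library, were credited to no gene, so such reads may be missing from both counts. The part of the partners in the results was not tested. Pcna has the pseudogenes Pcna-ps1 and Pcna-ps2, so reads shared with them may be missing from its counts. Only pseudogenes that carry the symbol of their gene were searched for, so copies of the 40 genes under other names may exist.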

How the data were processed

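The authors deposited raw gene counts per library, and a count table of the whole series with 0 differing values. The submitters' processing notes name STAR 2.4.0g, featureCounts, cutadapt 1.3, RSEM 1.2.19, HTSeq 0.6.1 and the builds mm10 and GRCm38, without saying which tool made which table. A further deposited table was read as TPM, since its columns sum to 999999.3 to 1000001.3, and used as an alternative only; its length term is uncertain, since CPM over TPM followed exon length weakly over the 40 genes (Spearman 0.28). Libraries were stranded mRNA preparations, per the labels. The 5 rows naming no gene held 37.3% to 39.4% of the reads listed, among them 25.4% to 27.7% aligned to more than 1 place, and stayed out of library sizes.

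Counts were tested in R 4.3.3 with edgeR 4.0.16: filterByExpr defaults, TMM scaling, 24 libraries in 1 model with 8 group means, the quasi-likelihood F test and Benjamini-Hochberg adjustment over 14866 genes. The common biological coefficient of variation was 3%. A gene was called at an adjusted p below 0.05. The SE of a log2 fold change is its size divided by the square root of F. Levels are TMM-scaled CPM, mean ± SD over 3 libraries where given. The code was tested on simulated data. Alternatives used DESeq2 1.42.0, library totals, upper-quartile scaling, no filter on low counts, limma 3.58.1 on log2(TPM + 1), only the groups compared, a replicate block and each library left out. Depth per library was 15759849 to 24144737 counts.

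The genes and lists were chosen with earlier results of these data known. Values per library are given for up to 5 called genes of the set in each direction of a comparison, by size of change and with at least 5 CPM, and for Mcm2, Mcm5, Cdc6, Cdt1, Pcna, Rrm2, Ccne1, Ccne2, E2f1, E2f2, Chaf1b and Slbp, with further genes as examples chosen after their values were seen. From the other lists at most 4 called genes a comparison were named. Markers of beta, alpha, delta, exocrine, fibroblast, endothelial and leukocyte cells were summed per library. Libraries with the same replicate number deviated together weakly at most (84 pairs, r of -0.066 to 0.183, median 0.028, 3 above 0.1). Pairs with different numbers had r of -0.16 to 0.088 (168 pairs, median -0.014, 0 above 0.1). A weak effect shared by libraries of the same number is therefore possible, and the main model held no term for it.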

Additional observations from a re-analysis of the deposited data

Results flagged for a closer look

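Each value here was flagged because the test of the difference itself found unlike responses to DOX in different lines; the responses of the lines to the same 7 d of DOX were compared in edgeR at an adjusted p below 0.05. Between the miR-23b and control responses 27 of the 40 genes were lower and 2 higher. The differences, in log2 units, were -0.57 for Gins2, -0.49 for Fen1, -0.48 for E2f8, -0.47 for Mcm10, -0.46 for Mcm4, -0.39 for Ccne1, -0.35 for Chaf1b, -0.33 for Cdc6 and for Slbp, -0.31 for Mcm5, -0.26 for Mcm2 and -0.13 for Pcna, and 0.31 for E2f2 and 0.18 for Ccne2. Between the miR-137 and control responses 7 were lower, with -0.27 for Pola1, -0.25 for Gins2, -0.24 for Uhrf1, and -0.19 for Cdc6 and for Rfc3. Between the miR-23b and miR-137 responses 24 were lower and 3 higher. These differences were -0.37 for Mcm10, -0.36 for Mcm4 and for Fen1, -0.35 for E2f8, -0.33 for Cdca7, -0.31 for Chaf1b and for Slbp, -0.25 for Ccne1, -0.23 for E2f1, -0.19 for Mcm5, -0.18 for Mcm2 and -0.14 for Cdc6, and 0.32 for E2f2, 0.24 for Ccne2 and 0.20 for Pola1.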

How the results depend on the processing

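Of the fold changes of named genes, 1489 of those recomputed under another setting kept their side of the threshold, and their direction where called. Changes of direction in genes called under neither setting are among these 1489. A further 22 gained a call, 49 lost one and 1 reversed: E2f1 between withdrawn and 7 d DOX in the miR-23b line, which was -0.09 on the log2(TPM + 1) scale. Of counts of called genes, 182 stayed within 1.5 times and 14 did not. With limma on log2(TPM + 1), these were 9 higher and 16 lower with DOX in the miR-23b line, 10 lower in the miR-23b against the miR-137 response, and 19 higher and 7 lower after withdrawal in the miR-23b line. With library totals 7 were higher with DOX in the miR-23b line, and without the filter 4 were lower in the miR-137 against the control response. For the single gene lower in the miR-137 line without DOX, the count was 0 with DESeq2, TPM or no filter, 2 with only the groups compared, and 3 with library totals, upper-quartile scaling or the replicate block. The cause was not tested.

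With 1 library left out, the genes lower without DOX numbered 1 to 2 in the miR-23b line and 0 to 1 in the miR-137 line, those higher in the miR-23b against the control response 1 to 2, and those lower in the miR-137 against the control response 4 to 7. The replicate block, which allows for an effect shared by libraries of the same number, left 27 lower and 4 higher with DOX in the miR-23b line. Against the control response it left 27 lower and 2 higher. At the depth of these libraries the smallest called changes, such as those of Mcm2 (-0.07) and Mcm6 (-0.08) after withdrawal in the miR-23b line, lost their call without any of several single libraries.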
